A study of Rattus norvegicus with 9 samples.

Results

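miR-126 was examined in small RNA from exosomes (vesicles shed by cells) of rat peritoneal macrophages. The members were all rows of the deposited miRNA table named miR-126a or miR-126b, with or without an arm suffix. Of 201 rows, 2 met this rule, rno-miR-126a-3p and rno-miR-126a-5p, and no row used here was named miR-126b. The tags (distinct read sequences) assigned to these names in the 9 single-library files were examined as well. Primary macrophages were taken by lavage from the peritoneum of untreated rats and kept in medium with fetal bovine serum. The Control group was kept with 0.1% DMSO for 24 h. The LPS group was stimulated for 6 h with 100 ng/ml of lipopolysaccharide, a bacterial cell wall component that activates macrophages. In the LPS+AS-IV group, 150 µM astragaloside IV (a triterpene glycoside from Astragalus) was given for 24 h ahead of LPS. Both agents were dissolved in DMSO, and the labels give the final DMSO content for Control alone. Each group had 3 libraries. Whether a library stands for its own animal or culture is not stated, and p-values therefore measure only how these samples vary, which can be technical variation.

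miR-126 is processed from an intron of Egfl7, a gene of endothelial cells, and is widely used as an endothelial marker. Platelets and some blood progenitor cells also hold it. Which cells or vesicles the reads came from was not measured. Its 3p arm is known for dampening inhibitors of growth factor signalling in endothelial cells, among them Spred1 and a regulatory subunit of PI3-kinase, and for limiting VCAM-1. In RefSeq (assembly GRCr8) both hairpins at this locus lie within Egfl7, on opposite strands. All 3 mature names were found there. In that table the hairpin with the miR-126a arms has the symbol Mir126b, and the antisense hairpin that gives miR-126b has the symbol Mir126a, so names were matched by the mature sequences.

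The mature sequences are shown because every tag below is read against them. Capitals mark the seed, bases 2 to 8 from the 5′ end, which does most of the pairing with target mRNAs. No other of the 693 mature rat names in the RefSeq table has the seed of miR-126a-3p.
miR-126a-3p: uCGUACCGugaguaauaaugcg
miR-126a-5p: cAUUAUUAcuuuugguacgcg
miR-126b: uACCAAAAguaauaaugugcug

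The strand of miR-126a from the 5p arm to the 3p arm is shown for the bases that flank the 3p arm. It was read as the reverse complement of the antisense RefSeq hairpin, with both arms in capitals and 16 bases between them. The base before the 3p arm is C, and the bases that follow it are T and G. miR-126b comes from the other strand, over 17 bases of the 5p arm.
miR-126a: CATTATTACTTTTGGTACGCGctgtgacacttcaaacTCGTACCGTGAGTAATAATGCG

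The next tags are shown because they carried most reads of miR-126a-3p and differ at the 5′ end or in 1 base. The first equals the mature sequence. The second starts 1 base later, and the third starts 1 base later and ends 1 templated base later. Their seed is GUACCGU in place of CGUACCG, and no mature rat name in the RefSeq table has it. In the fourth, capitals mark a changed base, G3A, with positions counted from 1 at the 5′ end of the mature sequence.
Mature tag: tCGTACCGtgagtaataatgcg
Shortened tag: cGTACCGTgagtaataatgcg
Shortened tag with T: cGTACCGTgagtaataatgcgt
G3A tag: tcAtaccgtgagtaataatgcg

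The table held between 15426 reads (LPS+AS-IV 1) and 546599 reads (LPS+AS-IV 3) per library, out of 3484099 to 9527483 assigned reads. The next largest table total was 75528. Counted by reads, the deepest library therefore has the smallest counting error, and LPS+AS-IV 1 the largest. The most common read count of a tag was 608.9 in LPS+AS-IV 3 and 38.1 to 107.6 in the others. It was taken over tags with at least 8 reads, in log2 bins of 0.5. In units of it, miR-126a-3p had 15.3, 6.04 and 12.1 in the Control libraries and 1.73, 4.07 and 0.910 in the LPS libraries. The LPS+AS-IV libraries had 0.595, 15.7 and 5.66. The table reads of miR-126a-3p in LPS 3 (98) and LPS+AS-IV 1 (64) thus lay under the most common read count of a tag, 107.6 in both. With PCR and no molecular identifiers, reads do not equal molecules, and the intervals and floors given cover counting error only. Of the myeloid markers listed, 4 of 5 were in the table. miR-146a-5p had reads in 9 libraries, miR-223-3p in 6, and miR-142-5p in 4 with 103 reads in all.

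miR-126a-3p was detected in all 9 libraries. The Control libraries had 584, 230 and 921 of its reads, the LPS libraries 93, 310 and 98, and the LPS+AS-IV libraries 64, 844 and 3445. Scaled to CPM (counts scaled to a common library size with TMM correction), Control stood at 12608, 6870 and 12377, LPS at 3346, 5307 and 1571, and LPS+AS-IV at 4616, 12866 and 6882. Each LPS library lay below each Control library. The LPS+AS-IV libraries overlapped both other groups, since LPS+AS-IV 1 lay below LPS 2 and LPS+AS-IV 2 above every Control library. In bulk exosome RNA, fewer vesicles of 1 origin and less of the miRNA per vesicle cannot be told apart.

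As a share of the reads in the table, miR-126a-3p held 1.38%, 0.745% and 1.22% in the Control libraries, 0.365%, 0.472% and 0.159% in the LPS libraries, and 0.415%, 1.23% and 0.630% in the LPS+AS-IV libraries. The means were 1.12% ± 0.332, 0.332% ± 0.159 and 0.757% ± 0.420 in the same order (SD, n = 3 each). The order of the groups was the same as for CPM. LPS was 0.784 percentage points below Control (exact permutation test over libraries, two-sided, p = 0.1, the smallest this design can give). LPS+AS-IV was 0.425 percentage points above LPS (exact permutation p = 0.2) and 0.359 below Control (exact permutation p = 0.3). The adjusted p was 0.45, 0.45 and 0.54 by Benjamini-Hochberg over the 9 share comparisons made. With 3 libraries against 3 no comparison could pass, so these p-values do not show that the groups were alike, and the LPS and Control shares did not overlap. As a share of all assigned reads they did overlap (exact permutation p = 0.3). LPS 2, at 0.0089%, then lay above Control 1 (0.0081%) and Control 2 (0.0042%) and below Control 3 (0.0112%). LPS 1 and LPS 3 stayed below each Control library.

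miR-126a-3p stood in the upper part of the table, at rank 20, 27 and 19 by reads in the Control libraries, 35, 30 and 47 in the LPS libraries, and 34, 22 and 21 in the LPS+AS-IV libraries. By mean CPM it was 22nd in Control, 37th in LPS and 25th in LPS+AS-IV. Its neighbours in Control were miR-99a-5p at 11161 ± 2379 CPM and miR-127-3p at 9254 ± 2370 CPM (SD, n = 3 each). Both were within 1 SD of its own 10618 ± 3249 CPM. In LPS miR-378a-3p and miR-99b-5p were nearest, and in LPS+AS-IV miR-34a-5p and miR-484, again within 1 SD of miR-126a-3p.

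**Figure D1:**
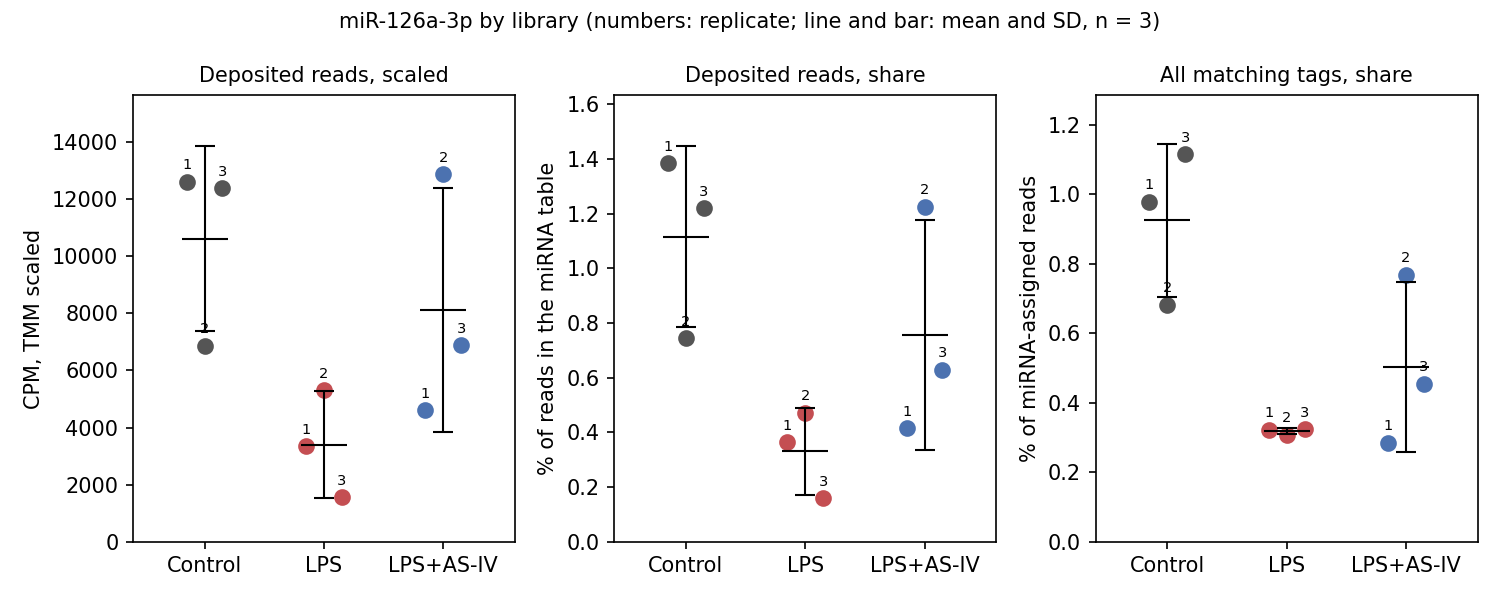
Level of miR-126a-3p in each of the 9 libraries, as TMM-scaled CPM (left), as percent of the reads in the miRNA table (middle) and with all matching tags as percent of the miRNA-assigned reads of 0 or 1 mismatch (right). Points are libraries with their replicate number, lines and bars the mean and SD (n = 3): the LPS libraries lie below the Control libraries in all 3 panels, and the LPS+AS-IV libraries overlap the Control libraries.

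The first comparison, LPS against Control, concerns the response to LPS. The mean of miR-126a-3p was 3408 ± 1869 CPM in LPS and 10618 ± 3249 CPM in Control (SD, n = 3 each). Its log2 fold change was -1.64 (SE 0.68, 95% interval -3.10 to -0.18). The unadjusted p was 0.0307 and the adjusted p was 0.662 by edgeR's quasi-likelihood test with Benjamini-Hochberg adjustment over 94 miRNAs, so it did not pass. In this comparison 1.06% of the tested miRNAs passed (1 of 94, let-7a-5p). In 11.7% of them (11 of 94) every LPS library lay below every Control library, miR-126a-3p among them, and in 7.45% every LPS library lay above. By unadjusted p it was the third of 94, after let-7a-5p and miR-3596a, which share tags that were named differently in different libraries. By log2 fold change it was 14th from the lowest.

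The second comparison, LPS+AS-IV against LPS, concerns the effect of astragaloside IV in stimulated cells. With the compound, the mean level of miR-126a-3p was 8121 ± 4262 CPM (SD, n = 3). The log2 fold change against LPS was 1.25 (SE 0.67, 95% interval -0.19 to 2.70). The unadjusted p was 0.0844 and the edgeR adjusted p was 0.963. None of the 94 tested miRNAs passed (0%), while the unadjusted p was under 0.05 for 3, and 2 were called by DESeq2. The groups did not overlap for 4.26% of the tested miRNAs upward and 3.19% downward, and miR-126a-3p was not among them. The value rests on few libraries: without LPS+AS-IV 2 the log2 fold change was 0.77 and without LPS 3 it was 0.83. These comparisons share the LPS libraries, so the values against Control and against LPS+AS-IV are not independent of each other.

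LPS+AS-IV against Control gave a log2 fold change of -0.39 (SE 0.66, 95% interval -1.81 to 1.04). The unadjusted p was 0.571 and the edgeR adjusted p was 0.981. In this comparison 2.13% of the tested miRNAs passed (2 of 94, let-7a-5p and miR-3596a). The groups did not overlap for 5.32% in either direction, and miR-126a-3p was not among them. The interval holds both no difference and a lower level like that of LPS, so the data do not show that astragaloside IV returned miR-126a-3p to the Control level. With all assigned reads as library sizes the value turned to 1.38 (SE 1.68), and the median of all tested miRNAs moved by 1.44 to 1.66. Relative to that median miR-126a-3p was 0.28 lower.

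**Figure D2:**
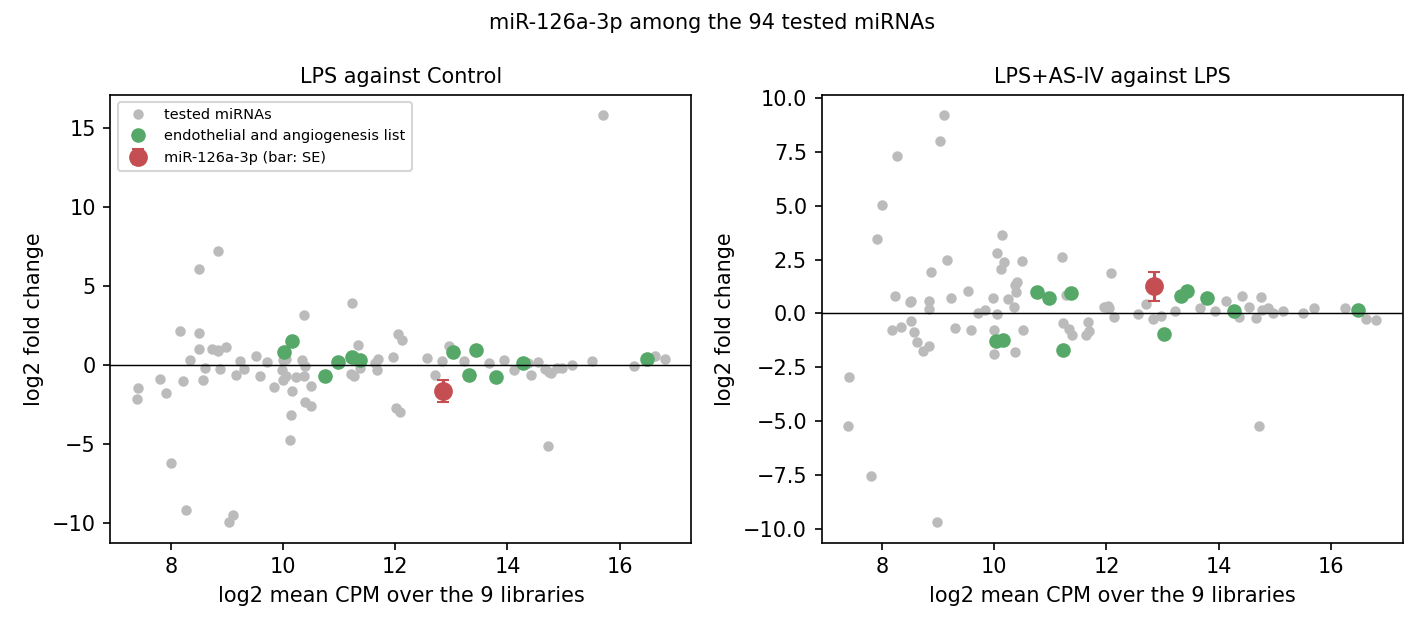
log2 fold change (y axis) against log2 mean CPM over the 9 libraries (x axis) for the 94 tested miRNAs, with miR-126a-3p in red with its SE and the tested members of the endothelial and angiogenesis list in green. miR-126a-3p lies at -1.64 in LPS against Control and at 1.25 in LPS+AS-IV against LPS, inside the spread of the other miRNAs.

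miR-126a-5p, the other arm of the hairpin, had 22 reads in LPS 3 and 0 in each of the other 8 libraries, too few to be tested. All 22 were the mature 21-nt tag. There the 5p arm gave 18.3% of the table reads of both arms (95% Wilson interval 12.4 to 26.2). This share counts 98 reads of the 3p arm, while all its tags in LPS 3 held 359, so it is smaller over all tags. The 22 reads also lie under the most common read count of a tag in LPS 3, 107.6. Where the count was 0, the share could be up to 0.0871% in LPS+AS-IV 3 (the deepest library) and up to 4.69% in LPS+AS-IV 1. Outside the table, the LPS 1 library held 1 read and the Control 2 library 1 read of other 5p tags. Tags named miR-126b were not found in any library.

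The reads of miR-126a-3p in the table were nearly all the mature tag. It gave 99.8%, 100% and 96.5% of them in the Control libraries, 79.6%, 99.7% and 100% in the LPS libraries, and 100%, 99.4% and 99.9% in the LPS+AS-IV libraries. The library that differed was LPS 1, with 74 reads of the mature tag and 19 that start 1 templated base earlier. No comparison of this share passed (exact permutation p = 0.7 in each of the 3 comparisons, adjusted p = 0.788), and no p under 0.1 was possible.

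The table left out a part of the miR-126a-3p reads, and this part differed between libraries. Besides 4 tag sequences labelled mature, 38 were labelled as hairpin tags and 20 went to the Rfam family RF00701. By reads, the last label fell mostly on the shortened tag with T. Together the 62 sequences held 8866 reads. The tags labelled mature held 76.5%, 60.4% and 63.1% of them in the Control libraries, 65.0%, 86.4% and 27.3% in the LPS libraries, and 84.2%, 89.4% and 78.6% in the LPS+AS-IV libraries. LPS 3 thus had the smallest part of its miR-126a-3p reads in the table. Another tag under RF00701, with 74 reads in LPS 2, was not placed on either arm by the sorting rule used. Single reads in Control 1, Control 3, LPS 3 and LPS+AS-IV 3 were not placed either. None of these reads were counted. Whether they come from an arm, with more changed bases or with other ends, was not tested.

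The shortened tag, which starts at the second base, was present in all 9 libraries. Control had 96, 35 and 394 such reads, LPS 21, 43 and 16, and LPS+AS-IV 4, 82 and 373. Of the form with T at its end, Control had 44, 96 and 13 reads, LPS 23, 0 and 243, and LPS+AS-IV 8, 8 and 6. In LPS 3 this form had more reads than the 98 of the mature tag. LPS 2 was the library without it. Control 3 also held 54 reads of a form with a last A that the RefSeq strand does not have, cGTACCGTgagtaataatgcga.

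All tags that start 1 base later made up 18.7%, 35.2% and 32.1% of the miR-126a-3p reads in the Control libraries, 32.2%, 12.0% and 72.7% in the LPS libraries, and 15.8%, 9.75% and 8.77% in the LPS+AS-IV libraries. For LPS 3 the 95% Wilson interval was 67.9 to 77.1. Each LPS+AS-IV library was below each Control library, while the LPS libraries ran from 12.0%, between LPS+AS-IV 2 and LPS+AS-IV 1, to the highest value of all. LPS+AS-IV was 17.2 percentage points below Control (11.4% ± 3.80 beside 28.7% ± 8.73, SD, n = 3 each), with an exact permutation p of 0.1 and an adjusted p of 0.45. LPS stood at 38.9% ± 30.9 (SD, n = 3), 10.3 percentage points above Control (exact permutation p = 0.8), and 6.58 below it without LPS 3. LPS+AS-IV was 27.5 percentage points below LPS (exact permutation p = 0.2, adjusted p = 0.45), and 10.6 below it without LPS 3. Without the Rfam tags the difference was -6.83 percentage points for LPS+AS-IV minus LPS and -10.5 for LPS+AS-IV minus Control (exact permutation p = 0.1 each).

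The same shortening was looked for in other miRNAs. Among miRNAs with at least 50 reads of their mature tag, between 27 and 56 per library, the median share of the tag without its first base was 0% in each of the 9 libraries. For miR-126a-3p it was 14.1%, 13.2% and 30.7% in the Control libraries, 22.1%, 12.2% and 14.0% in the LPS libraries, and 5.88%, 8.90% and 9.78% in the LPS+AS-IV libraries, counting only the 21-nt form beside the mature tag. Between 0 and 3 other miRNAs per library had a higher share. These are values of single tags in shared libraries, given without a test.

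**Figure D3:**
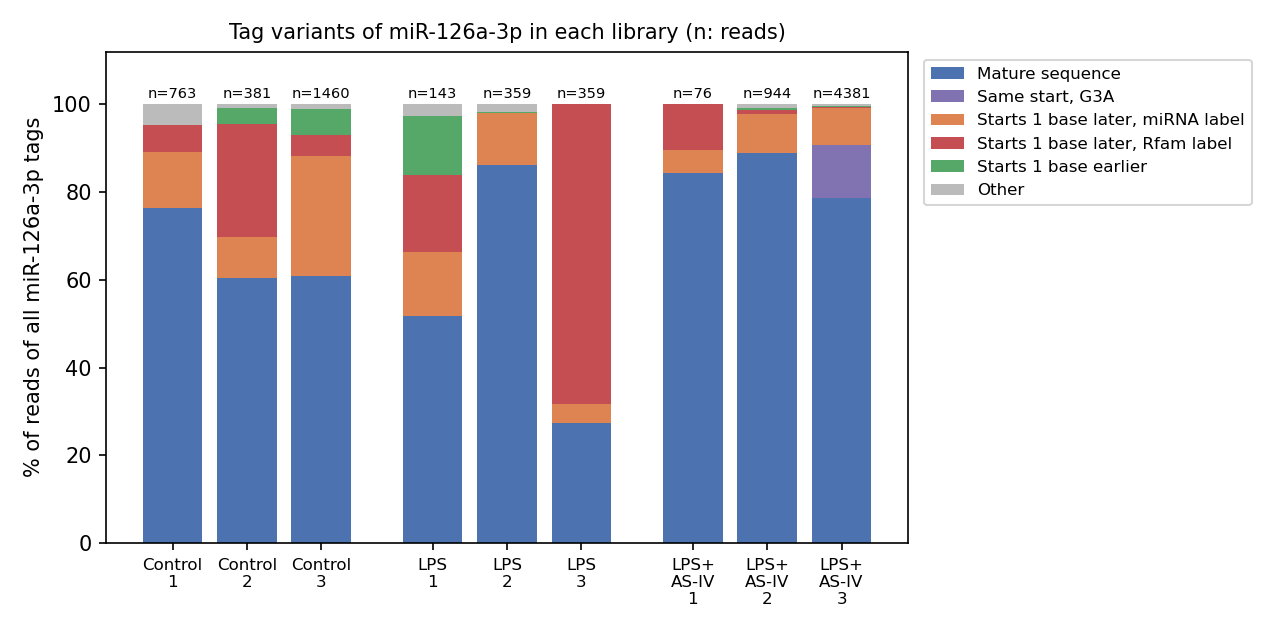
Percent of the reads of all miR-126a-3p tags (y axis) held by each kind of tag in each of the 9 libraries (bars), with the number of reads above. The mature sequence gives the largest part in 8 libraries, and in LPS 3 the tags that start 1 base later give 72.7%.

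The G3A tag had 530 reads in LPS+AS-IV 3 and 0 in the other 8 libraries. It held 12.1% of the miR-126a-3p reads there (95% Wilson interval 11.2 to 13.1). Its 530 reads lie under the most common read count of a tag in LPS+AS-IV 3, 608.9. The interval treats each read as a separate draw and can be too narrow. In the others a count of 0 allowed a share of up to 0.205% (Control 3) to 3.95% (LPS+AS-IV 1). The other 39 tag sequences with 1 inner base changed had 57 reads in all, and at most 2 in any library. In LPS+AS-IV 3, tags with 1 inner base changed and at least 10% of the reads of the mature tag were seen for 5 of 55 miRNAs, and in the other libraries for 0 to 3. miR-126a-3p with its G3A tag is itself among those 5. The G3A tag is labelled as a hairpin tag and is not in the table, so it does not enter the table reads, CPM or table shares. It does enter the count of all matching tags and the tag shares. Its seed, CAUACCG, is not that of any mature rat name in the RefSeq table.

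Counting all matching tags changed the picture of the LPS group. As a share of all miRNA-assigned reads of 0 or 1 mismatch plus these Rfam tags, miR-126a-3p held 0.978%, 0.683% and 1.11% in the Control libraries, 0.323%, 0.309% and 0.324% in the LPS libraries, and 0.286%, 0.769% and 0.454% in the LPS+AS-IV libraries. The 3 LPS libraries were then nearly equal, and LPS+AS-IV 1 lay below them. This near-equality rests on leaving out the 74 reads under RF00701 in LPS 2 that were not placed on an arm. In LPS 2 359 reads were counted, and the 74 would raise its share. Rfam tags added 25 reads in LPS 1 and 245 in LPS 3. The log2 fold change was -1.35 (SE 0.49, edgeR unadjusted p = 0.0175, adjusted p = 0.452) in LPS against Control. It was 0.55 (SE 0.48, adjusted p = 0.993) in LPS+AS-IV against LPS, beside 1.25 in the deposited table. Against Control, LPS+AS-IV stood at -0.80 (SE 0.48, adjusted p = 0.996). Rfam tags of other miRNAs were not added, and this count was chosen after the data were seen.

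**Figure D4:**
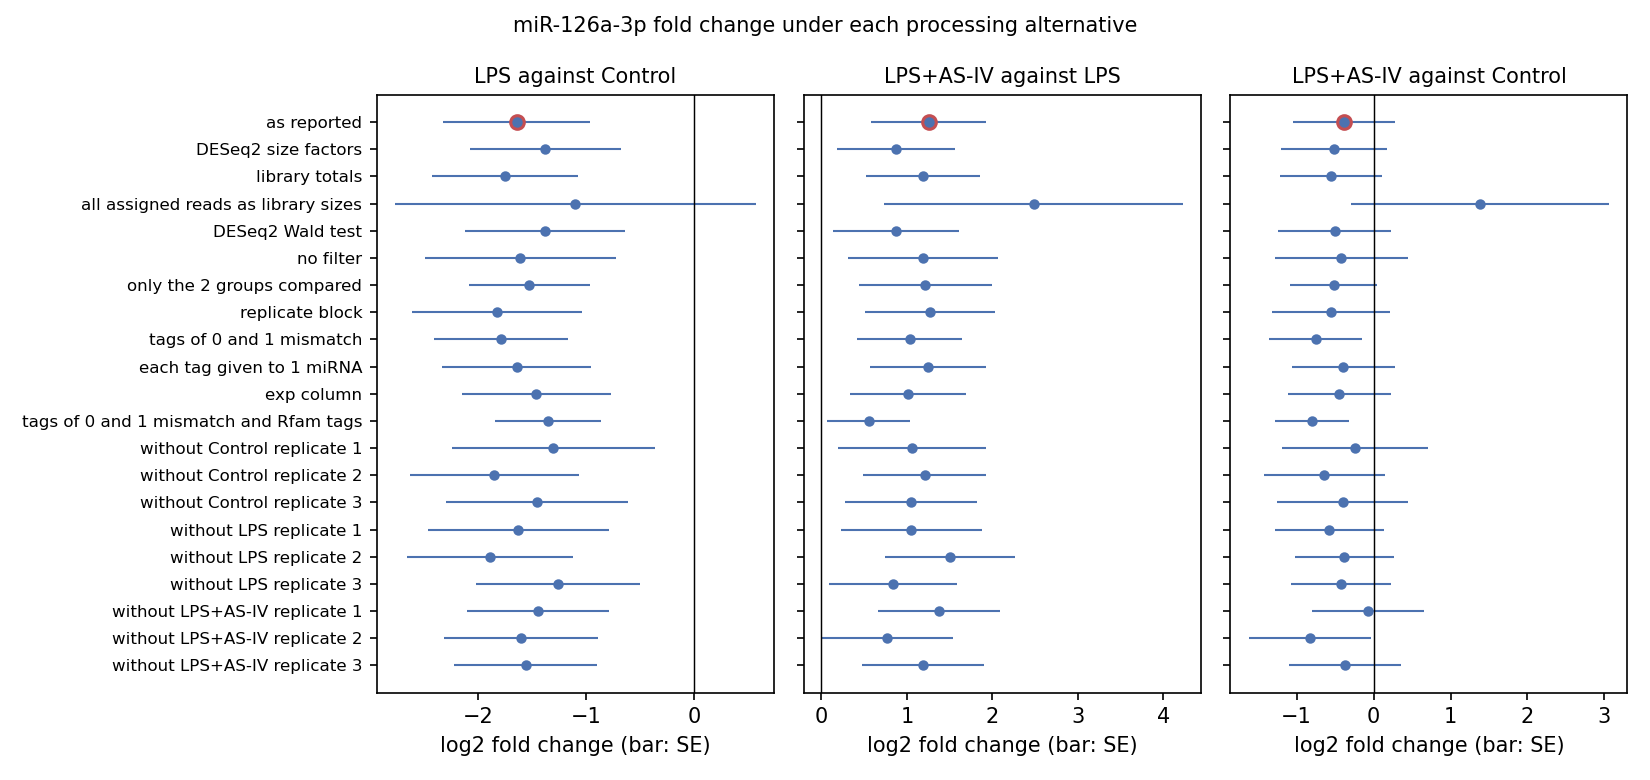
log2 fold change of miR-126a-3p with its SE (x axis) under each processing alternative (y axis) in the 3 comparisons, the reported value in red. The value stays below 0 in LPS against Control and above 0 in LPS+AS-IV against LPS, where the count of all matching tags gives the smallest value, 0.55.

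Other miRNAs linked to endothelium and blood vessel growth were then set beside miR-126a-3p. Of a list of 21, 14 were in the table and 12 were tested. None passed in any comparison by edgeR, and the unadjusted p was under 0.05 for 0, 0 and 1 of them. In LPS against Control 9 had a higher and 3 a lower fitted level, with a median log2 fold change of 0.37 beside -0.04 over all tested miRNAs. The 3 lower ones were miR-10a-5p (-0.70), from the Hox clusters, miR-23a-3p (-0.72) and miR-99a-5p (-0.65). Those higher were miR-100-5p, miR-221-3p, miR-222-3p, miR-24-3p, miR-27a-3p, miR-27b-3p, miR-92a-3p, miR-378a-3p and miR-181b-5p, of which miR-222-3p, known to restrain vessel sprouting, had 0.85 and the anti-angiogenic miR-92a-3p 0.39. Their summed level was 127358 to 153810 CPM in Control and 149466 to 189020 CPM in LPS, which overlapped. In LPS+AS-IV it was 159728 to 225527 CPM, with every library above every Control library. Among single tested miRNAs, 5.32% lay above Control in this way, miR-27a-3p and miR-181b-5p of this list among them. The largest part of each sum was miR-92a-3p. It overlapped, at 64942 to 82664 CPM in Control and 64925 to 148067 CPM in LPS+AS-IV. Sums of other sets of miRNAs were not drawn as a background. Against LPS, the LPS+AS-IV median was 0.43 beside 0.19 over all, with 8 of 12 higher. Against Control it was 0.25 beside 0.21, with 8 of 12 higher, and the lowest unadjusted p was that of miR-181b-5p (log2 fold change 2.01, edgeR adjusted p = 0.167).

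Platelets also hold miR-126, and 7 of 7 platelet miRNAs listed were tested. None passed, and their median log2 fold change was 0.13 in LPS against Control, 0.10 in LPS+AS-IV against LPS and 0.22 in LPS+AS-IV against Control. The most abundant of them, miR-191a-5p, had 0.27 in LPS against Control. Their summed level was 77448 to 136406 CPM in Control and 97943 to 109481 CPM in LPS. The summed level of the list thus overlapped between LPS and Control. In that comparison 4 of its members had a higher and 3 a lower fitted level. Several of its members are abundant in many cells. The part of platelets in the level of miR-126a-3p was not tested.

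The summed levels of some other marker lists did not overlap between LPS and Control. Among single tested miRNAs, 11.7% were lower and 7.45% higher in LPS without overlap. The mesenchymal and smooth muscle list summed to 8333 to 11939 CPM in Control, 1151 to 2132 CPM in LPS and 1659 to 3765 CPM in LPS+AS-IV. In Control and LPS most of this sum was a single miRNA, miR-127-3p, with a mean of 9254 CPM in Control and 1411 CPM in LPS. Of its 6 members 5 were in the table and 2 were tested, miR-127-3p (log2 fold change -2.71) and miR-199a-3p (-0.64) in LPS against Control, and neither passed. The defining smooth muscle markers were close to 0, with 2 reads of miR-143-3p and 3 of miR-145-5p over the 9 libraries. The erythroid list summed to 37514 to 48569 CPM in Control and 28283 to 36378 CPM in LPS, with 2 of 4 tested and neither passing. miR-451-5p stood at -0.18 and miR-486 at -2.98, with every LPS library below every Control library for miR-486, and the median of both was -1.58. The liver and serum list lay the other way, at 1451 to 3238 CPM in Control and 3595 to 9355 CPM in LPS, with miR-122-5p at 1.56. Most of this sum was miR-122-5p, with a mean of 2041 CPM in Control and 6033 CPM in LPS. Its other tested member, miR-192-5p, stood at -0.99 with overlapping groups, and the median of both was 0.28. The part of these cell types in the level of miR-126a-3p was not tested.

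The remaining marker lists overlapped between LPS and Control. The myeloid list (3 of 5 tested) had a median log2 fold change of 0.42 and the lymphocyte list (2 of 3 tested) one of 0.10, and the epithelial and mesothelial list had 1 tested member, miR-429 (2.15). No member of these lists or of the erythroid, mesenchymal and liver lists passed in any comparison by edgeR. The most abundant lymphocyte marker, miR-181a-5p, had 0.40 and the most abundant myeloid marker, miR-146a-5p, -0.41. Between LPS+AS-IV and LPS the medians were 0.75 for the myeloid, -0.03 for the lymphocyte, 0.94 for the erythroid, 1.41 for the mesenchymal and 0.32 for the liver list, with miR-429 at -0.75. Between LPS+AS-IV and Control they were 0.38, 0.07, -0.64, -0.27 and 0.61, with miR-429 at 1.41.

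The miRNAs whose pattern was most like that of miR-126a-3p were named by Pearson's r of log2 CPM over the 9 libraries, among 43 other miRNAs with reads in each library. These were let-7i-5p (r = 0.60), miR-99a-5p (0.57), miR-10a-5p (0.53), miR-204-5p (0.50) and miR-23a-3p (0.49). All miRNAs of a library share its depth and group, depth differs between libraries, and r is given as a description. Of these, miR-99a-5p had the highest rank correlation, 0.70. It stood at 13882, 10125 and 9475 CPM in the Control libraries, 7052, 7670 and 6590 in the LPS libraries, and 8294, 25153 and 3989 in the LPS+AS-IV libraries. Like miR-126a-3p it was lower in each LPS library than in each Control library and highest in LPS+AS-IV 2. let-7i-5p varied far less, between 30352 and 40171 CPM. miR-204-5p, which the title of the series names, had 1 to 20 reads in the LPS libraries and 25 to 681 in the others.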

How the data were processed

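Small RNA of exosomes from rat peritoneal macrophages was sequenced on the BGISEQ-500 platform after extraction with a commercial exosome RNA kit, per the labels' protocols. The deposited table held whole-number read counts per mature miRNA, per the file headers, and a second column of counts per library, headed exp, for which the sources used here give no method. Deposited files of single libraries held counts of each tag with its assignment and a score (mismatches, or an Rfam score), per the file headers. Bowtie2 and the genome build Rnor_6.0 are named in the submitters' processing notes, without a role. No coordinates are given, since that build was not used here. Mature and hairpin sequences were taken from RefSeq (GRCr8).

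Counts were fitted once over the 9 libraries by the quasi-likelihood method of edgeR 4.0.16 under R 4.3.3, with TMM factors and filterByExpr defaults, which left 94 of 201 miRNAs. A miRNA passed at 0.05 after Benjamini-Hochberg adjustment. Each SE is the absolute log2 fold change divided by the square root of F. Shares were compared by exact permutation tests (two-sided), with 95% Wilson intervals for single libraries (scipy 1.17.1), and a count of 0 allowed 3 reads. Tags were sorted by their ends against the RefSeq strand, within 1 base difference. The working of the fit was checked on simulated data with a spread far under that of these libraries. Here the square root of edgeR's common dispersion was 1.423, so that check does not give the power or error rate for these data. DESeq2 1.42.0, other scalings, filters, tag counts and leaving out each library were alternatives. The miRNAs named were the members, the tested members of the endothelial and angiogenesis list, the most abundant tested member of each marker list (platelet, myeloid, lymphocyte, erythroid, mesenchymal and smooth muscle, epithelial and mesothelial, liver and serum), neighbours in level, and the 5 most alike in pattern. The members and lists were chosen with earlier results of these data known. Within groups no 2 libraries were alike within sampling noise (chi-square over its degrees of freedom at least 24.3).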

Additional observations from a re-analysis of the deposited data

Results flagged for a closer look

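The values below came from tags outside the tested rows and stood above every Control library. In LPS 3 the tags of miR-126a-3p under the Rfam family RF00701 held 68.2% of its reads, beside 5.00% to 25.7% in Control. In LPS+AS-IV 3 the G3A tag held 12.1%, beside 0 reads in Control. In LPS 3 miR-126a-5p held 18.3% of the table reads of both arms, beside 0 table reads in Control. That share counts 98 reads of the 3p arm, of 359 over all its tags. The G3A tag and the table reads of miR-126a-5p were each seen in 1 library of their group. Rfam tags of miR-126a-3p also held 17.5% of its reads in LPS 1, inside the Control range, and none were placed on the 3p arm in LPS 2.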

How the results depend on the processing

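Under 11 alternatives and 9 fits that each left out 1 library, the log2 fold change of miR-126a-3p kept its direction in LPS against Control (-1.82 to -1.10, and -1.89 to -1.26 without 1 library) and in LPS+AS-IV against LPS (0.55 to 2.48, and 0.77 to 1.51). It passed in none, with adjusted p from 0.262 to 0.997 and from 0.508 to 1. In LPS+AS-IV against Control it was -0.83 to -0.07 without 1 library and turned to 1.38 with all assigned reads as library sizes, where the share turned to 0.0126 percentage points. Relative to the median of all tested miRNAs, which DESeq2 size factors moved by 0.25, -0.34 and -0.13 and library totals by -0.19 in LPS+AS-IV against Control, miR-126a-3p stayed within 0.1 of its reported distance. With all assigned reads the distance was -1.18 beside -1.62 in LPS against Control, 0.93 beside 1.02 in LPS+AS-IV against LPS and -0.28 beside -0.61 in LPS+AS-IV against Control. By share of all assigned reads, LPS and Control overlapped, since LPS 2 lay above Control 1 and Control 2.

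The number of miRNAs passing in LPS against Control was 2 with DESeq2 size factors, library totals, no filter, the replicate block or the exp column, 3 by DESeq2 or with only the groups compared, and 0 with each tag given to 1 miRNA. In LPS+AS-IV against LPS it was 1 with DESeq2 size factors, no filter or the replicate block and 2 by DESeq2. In LPS+AS-IV against Control it was 0 with each tag given to 1 miRNA. Leaving out 1 library gave 1 to 3 (more than 1 without Control 1, Control 3, LPS 1, LPS+AS-IV 2 or LPS+AS-IV 3), 0 to 1 (1 without Control 1, LPS 1 or LPS+AS-IV 2) and 2 to 3. With the replicate block, miR-126a-3p stood at -1.82, 1.27 and -0.55 and did not pass. Deviations of same-numbered libraries correlated between -0.122 and 0.149. With so few and so variable libraries, this cannot show whether those of the same number share an animal, culture or batch. The reported fit treated them as unpaired.

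The mature tag's share of the table reads was 5.70 percentage points lower in LPS than in Control, but 2.65 higher with tags of 0 and 1 mismatch, -10.8 with the Rfam tags too, and -9.16 to 1.05 without 1 library (1.05 without LPS 1). The ranges were -0.0845 (without LPS 1) to 10.1 in LPS+AS-IV against LPS and -0.160 (without Control 3) to 1.58 in LPS+AS-IV against Control. With tags of 0 and 1 mismatch these comparisons gave 9.27 and 11.9 beside 6.67 and 0.969, and with the Rfam tags too 28.8 and 18.0 (exact permutation p = 0.3 and 0.1). The share of tags starting 1 base later in LPS against Control was -3.65 without the Rfam tags and -6.58 (without LPS 3) to 23.8 without 1 library. The cause was not tested.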
